A study of Mus musculus with 2 samples.

Results

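Nuclear receptors are transcription factors, many of them switched by small fat-soluble ligands such as retinoic acid, steroids, thyroid hormone, vitamin D, oxysterols and fatty acids. The family was taken as 46 protein-coding mouse genes of the GENCODE M21 annotation, out of 21853. Every accessible region within 1 kb of one of their transcription starts was given to the gene as a promoter region, and every region farther out whose nearest protein-coding start within 100 kb was theirs was given to it as a distal region. This gave 47 promoter regions and 158 distal regions, 205 of the 67395 regions in the conservative list of regions that passed a reproducibility threshold (IDR, the irreproducible discovery rate). The members were placed in 3 classes from textbook knowledge of where they are expressed: 12 ubiquitous, 8 myeloid and 26 tissue-restricted receptors. The classes were set with earlier results of these data known, and the class of some members is debatable.

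The data were ATAC-seq, in which a transposase inserts adapters where DNA is not covered by nucleosomes, from primary common myeloid progenitors. These are bone marrow cells that give rise to granulocytes, monocytes, red cells and platelets. Male C57BL/6J mice of 5 to 6 weeks were the source, the labels name no genetic change or treatment, and 50000 cells went into each library. The 2 libraries are labelled as biological replicates 1 and 2 but carry the same donor entry, so the spread between them may be technical only. With no second group, each comparison below sets receptors beside all genes or all regions of the same list, with no test. The lists hold no read counts, so the depth is unknown, and a gene without a region is one where none was listed at this depth, not one shown to be closed. Signal is the authors' own value for a peak. Its scale is not given in the sources used here, so it ranks regions within 1 list and is not compared between lists. Intervals are 95% Wilson intervals for counting error, and genes and regions are not independent replicates. The label was checked with marker genes, beside the 60.8% of all protein-coding genes that had a promoter region: 9 of 10 progenitor genes had a promoter region (Kit, Cd34, Flt3, Runx1, Spi1, Cebpa, Gata1, Mpo and Csf1r, not Gata2), as did 2 of 4 B cell genes (Pax5 and Ebf1), 2 of 5 T cell genes (Cd3d and Bcl11b), 3 of 5 stromal and endothelial genes (Col1a1, Cdh5 and Pecam1) and 0 of 4 hepatocyte genes. Of the progenitor genes, 7 were in replicate 1's own list and 6 in replicate 2's, with Mpo and Csf1r in neither and Gata1 in replicate 1's alone. At these numbers of genes the B cell, T cell and stromal counts lie near or below the share of all genes. The interval of the progenitor count, 59.6 to 98.2%, also holds that share. By signal the progenitor genes with a promoter region ranked lowest of these lists. Their median percentile among all genes with one was 23.9, with 100 the strongest. It was 68.9 for the 2 B cell, 55.7 for the 2 T cell and 33.0 for the 3 stromal and endothelial genes. No promoter region was listed for Cd79a, Ms4a1, Cd3e, Cd4, Cd8a, Cxcl12 or Lepr. The part of other cells in the results below was not tested.

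In myeloid cells, retinoic acid acting through Rara with an Rxr partner is known to drive granulocyte maturation, vitamin D acting through Vdr monocyte maturation, and Pparg and Nr1h3 the lipid handling of macrophages. Receptors of this family bind the hexamer AGGTCA or, for the glucocorticoid group, AGAACA, alone or as paired copies. Most ligand-sensing members outside the steroid group pair with an Rxr protein on DNA.

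Of the 46 receptor genes, 34 had a promoter region (73.9%, interval 59.7 to 84.4%), beside 60.8% of all protein-coding genes. The classes were ordered ubiquitous, myeloid, tissue-restricted: 12 of 12 ubiquitous receptors (interval 75.8 to 100%), 7 of 8 myeloid receptors (52.9 to 97.8%) and 15 of 26 tissue-restricted receptors (57.7%, 38.9 to 74.5%) had one. The intervals of the myeloid and tissue-restricted classes both contain the share of all genes. That of the myeloid class overlaps those of the ubiquitous and of the tissue-restricted class. In the replicates' own lists, 29 receptors had a promoter region in replicate 1, beside 56.3% of all genes, and 27 in replicate 2, beside 52% of all genes. By class these were 12 ubiquitous, 6 myeloid and 11 tissue-restricted receptors in replicate 1, and 10, 6 and 11 in replicate 2. The tissue-restricted share was 42.3% in each, below that of all genes. Of the 34 genes with a promoter region, 25 were listed in both replicates. Over all protein-coding genes, 13293 had a promoter region in the conservative list and 11169 had one in both replicates' own lists. By region, 28 of the 47 receptor promoter regions were in both lists (59.6%), beside 71.8% of all promoter regions. By class these were 11 of 15 ubiquitous (73.3%), 7 of 11 myeloid (63.6%) and 10 of 21 tissue-restricted regions (47.6%). The lower share was thus not found in every class. Nr2f6, Rxrb, Rarb and Esr2 were listed in replicate 1 alone, Nr0b2 and Esrrg in replicate 2 alone, and Pparg, Nr1i2 and Nr5a2 in the conservative list with no entry in either replicate's own list. All 9 of these had an entry in both replicates' less strict pseudoreplicated lists.

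**Figure D1:**
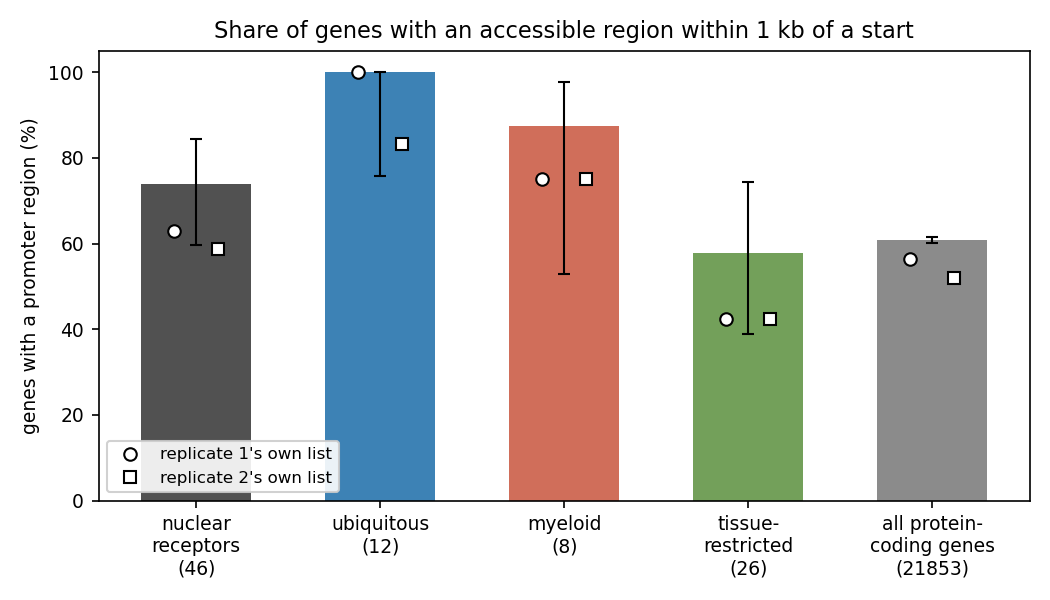
Bars show the percentage of genes with an accessible region within 1 kb of a start in the conservative list, with 95% Wilson intervals, for the 46 nuclear receptors, their 3 classes and all 21853 protein-coding genes; circles and squares give the same share in each replicate's own list. The ubiquitous bar stands at 100%, the tissue-restricted bar at 57.7%, beside the 60.8% of all genes. The tissue-restricted circle and square both stand at 42.3%, beside 56.3% and 52% of all genes.

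Other settings gave 33 receptors in the series' IDR-thresholded list, beside 60.7% of all genes, 38 in its replicated-peaks list, beside 68.3%, and 37 in its pseudoreplicated list, beside 68.5%. With windows of 500 bp and 2500 bp in place of 1 kb there were 33, beside 58.9%, and 37, beside 64.8%, and with the starts of the GENCODE basic set 34, beside 59.9%. Among the upper 50% of regions by signal there were 17, beside 43.7% of all genes, so here the family's share was below that of all genes. By class these were 7 of 12 ubiquitous, 2 of 8 myeloid and 8 of 26 tissue-restricted receptors. The myeloid share was thus below the tissue-restricted one in this setting.

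The promoter regions of the receptors ranked low by signal. Over the 34 genes, the strongest promoter region of each had a median signal of 8.16, beside 10.4 over all 13293 protein-coding genes with a promoter region. The median percentile of the 34 among those genes was 26.3, and it was 31.8 for the ubiquitous, 16.1 for the myeloid and 31.6 for the tissue-restricted class. The myeloid class, in which all but 1 gene had a promoter region, thus had the lowest median. Percentiles of promoter regions are ranks among these same genes unless another list is named, with 100 the strongest.

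**Figure D2:**
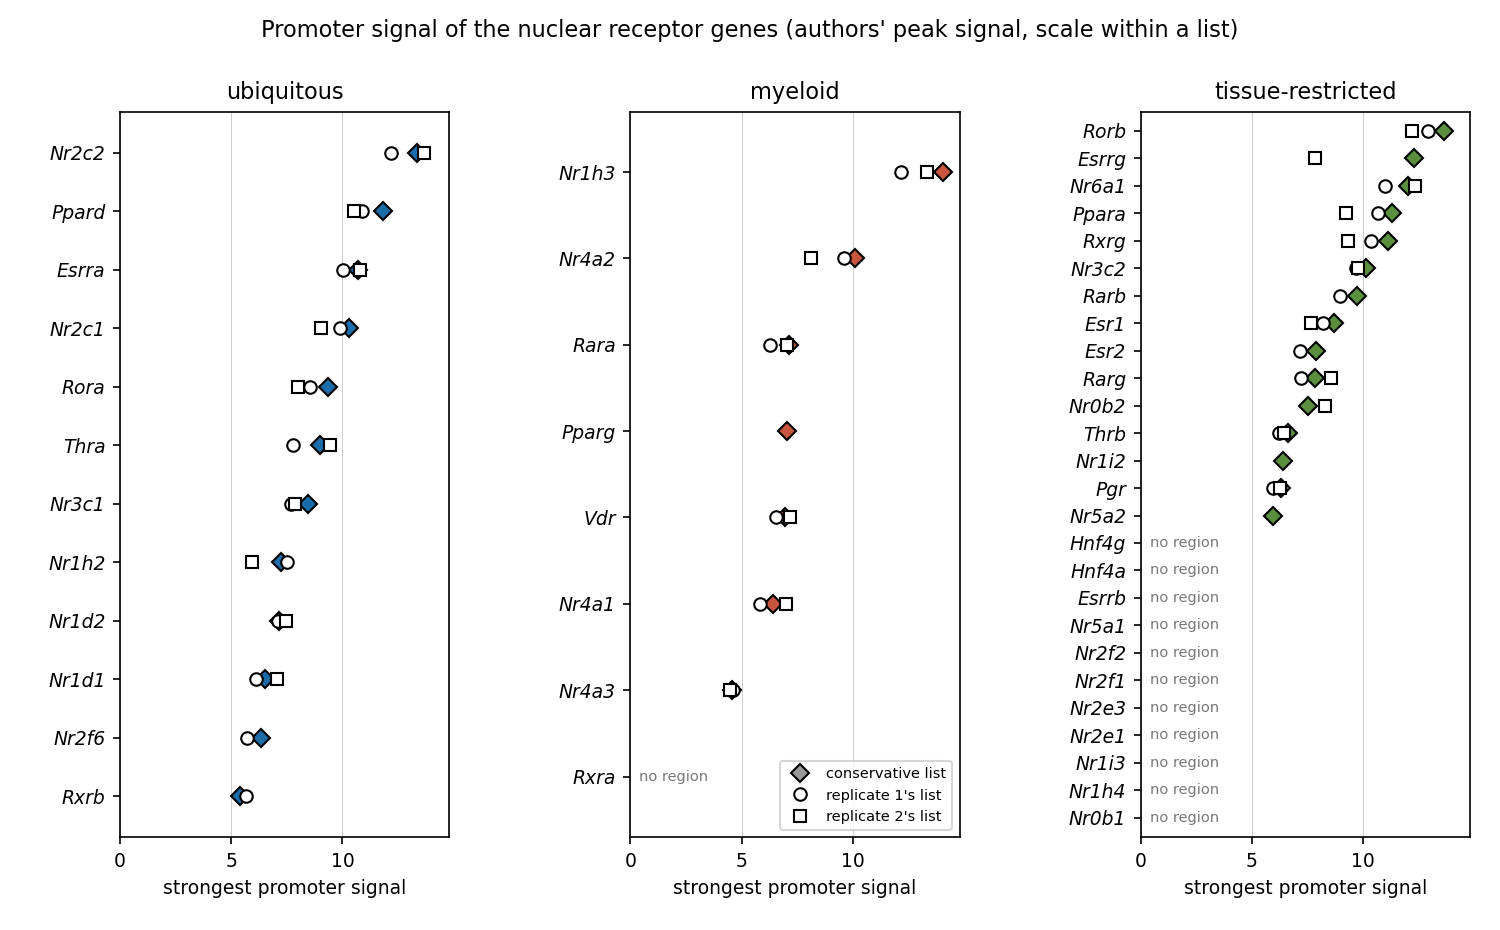
Each row is 1 receptor gene, sorted by the signal of its strongest promoter region in the conservative list (diamonds), with its signal in replicate 1's own list (circles) and replicate 2's own list (squares); columns are the 3 classes and the horizontal axis is the authors' peak signal, which is comparable within a list. Nr1h3, Rorb and Nr2c2 lie at the right, Nr4a3 and Rxrb at the left, and 12 genes, 11 of them tissue-restricted, have no region.

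The retinoid receptors comprise Rara, Rarb and Rarg, which bind retinoic acid, and their partners Rxra, Rxrb and Rxrg. All but Rxra had a promoter region. Rara had a signal of 7.12 at its strongest promoter region, beside the Rara-202 start, with 6.27 in replicate 1's list and 7.04 in replicate 2's, and a weaker one of 4.79 at the Rara-204 start. Rarg had 7.82 at Rarg-204, with 7.20 in replicate 1 and 8.56 in replicate 2, and 2 weaker regions near Rarg-202 with 3.97 and 4.17. Both genes were thus listed in both replicates at a rank below the middle of all genes, at percentiles 16.8 and 23.0. Rarb, which retinoic acid itself is known to induce, had a stronger region of 9.73 at chr14:16575247-16575956 (mm10), with 8.97 in replicate 1's list and no entry in replicate 2's stricter list, where the less strict list had 7.92. Among the partners, Rxrg, best known from muscle and brain, ranked highest at 11.1 (10.4 in replicate 1 and 9.30 in replicate 2). Rxrb had 5.39, with 5.68 in replicate 1 and no entry in replicate 2's stricter list, in a region 127 bp upstream of its start that it shares with the zinc transporter gene Slc39a7.

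Rxra, the partner most often named for myeloid cells, was the exception among the myeloid receptors. No region lay within 1 kb of any of its 5 starts in the conservative list, in either replicate's stricter or less strict list, or in the series' other threshold lists, and the nearest was 5517 bp away in the conservative list. The released replicated-peaks list did have one at chr2:27676087-27676285, 155 bp from a start, with a signal of 3.56 at percentile 15.5 of that list. The 1 kb round the start with its highest CG ratio was 78.8% GC, the highest value so measured for the 46 genes. Its body was not empty: 5 of its 6 distal regions lay in its own introns, the strongest 29.9 kb beyond a start with a signal of 11.1 (10.3 in replicate 1 and 12.2 in replicate 2). The upstream Rxra promoter is printed beside that of Nr1h3, the receptor with the strongest promoter region in the conservative list, to show its base composition. The Rarb promoter is printed for its known retinoic acid element. All are RefSeq promoters on GRCm38.p6 (the mm10 build), 250 bases before to 50 after a start, 5′ to 3′ along the gene. Capitals mark CG dinucleotides in Rxra (chr2:27676951-27677250, plus strand) and Nr1h3 (chr2:91195067-91195366, minus strand), and the retinoic acid element in Rarb (chr14:16575427-16575726, minus strand). 
Rxra promoter: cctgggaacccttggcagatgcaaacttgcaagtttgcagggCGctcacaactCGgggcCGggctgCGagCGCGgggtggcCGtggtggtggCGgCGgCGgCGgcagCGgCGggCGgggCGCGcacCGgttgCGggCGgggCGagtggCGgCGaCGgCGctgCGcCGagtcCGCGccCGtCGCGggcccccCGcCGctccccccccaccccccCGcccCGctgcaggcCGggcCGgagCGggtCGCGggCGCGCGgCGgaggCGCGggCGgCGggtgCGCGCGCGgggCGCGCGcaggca
Nr1h3 promoter: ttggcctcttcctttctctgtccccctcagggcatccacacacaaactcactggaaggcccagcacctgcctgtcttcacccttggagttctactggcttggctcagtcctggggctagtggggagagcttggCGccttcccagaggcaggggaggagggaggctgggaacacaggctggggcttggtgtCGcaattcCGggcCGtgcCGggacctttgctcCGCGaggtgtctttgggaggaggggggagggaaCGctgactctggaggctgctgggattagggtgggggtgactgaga
Rarb promoter: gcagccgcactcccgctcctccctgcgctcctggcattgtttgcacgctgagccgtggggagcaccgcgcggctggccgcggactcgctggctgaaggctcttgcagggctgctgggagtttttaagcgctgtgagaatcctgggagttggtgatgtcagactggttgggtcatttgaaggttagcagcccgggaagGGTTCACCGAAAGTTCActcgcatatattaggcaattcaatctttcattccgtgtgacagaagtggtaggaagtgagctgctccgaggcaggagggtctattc
The Rxra window holds 55 CG dinucleotides in 300 bases at 83% GC, and the Nr1h3 window 8 at 63% GC. Rxra has another RefSeq promoter inside the gene, at chr2:27709042-27709341, with 1 CG dinucleotide at 54.3% GC, and no region was listed within 1 kb of that start either. A second Nr1h3 window, overlapping the printed one, holds 10. The Rarb window holds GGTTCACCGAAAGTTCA at bases -53 to -37 from the RefSeq start, at chr14:16575513-16575529. The GENCODE start nearest to it, Rarb-201, lies elsewhere, and the centre of the element is 22 bp downstream of that start. This element was looked for after the values had been seen. The hexamers GGTTCA and AGTTCA with 5 bases between, on either strand, were in 11 of the 67395 regions (0.0163%), and the Rarb promoter was the one receptor region among them.

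Among all genes with CpG-rich promoters (here a CG ratio of at least 0.6 and at least 50% GC over 1 kb), the share with a promoter region was lower at higher GC. It was 93.3% at 50 to 55% GC and 80.4% at 75 to 90% GC, and the median signal of the open ones was 12.6 at the low end and 7.81 at the high end. Of the 2 receptors in the highest class, Nr2f6 had a region, with a signal of 6.35, and Rxra had none. Over the family, 27 of 33 CpG-rich receptors had a promoter region, beside 88.6% of all CpG-rich genes, and 7 of 13 CpG-poor receptors had one, beside 33.3% of all CpG-poor genes. The higher share of the family as a whole thus stood beside a larger CpG-rich share, 71.7% of receptors and 49.8% of all genes. By class, 11 of 11 CpG-rich ubiquitous, 6 of 7 myeloid and 10 of 15 tissue-restricted receptors had a promoter region. The last share was 66.7% (interval 41.7 to 84.8%), below that of all CpG-rich genes, while 5 of 11 CpG-poor tissue-restricted receptors had one (45.5%). The 6 CpG-rich receptors without a region were Rxra, Nr2e1, Nr2f1, Nr2f2, Nr5a1 and Esrrb. The part of base composition in the listing of Rxra was not tested.

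**Figure D3:**
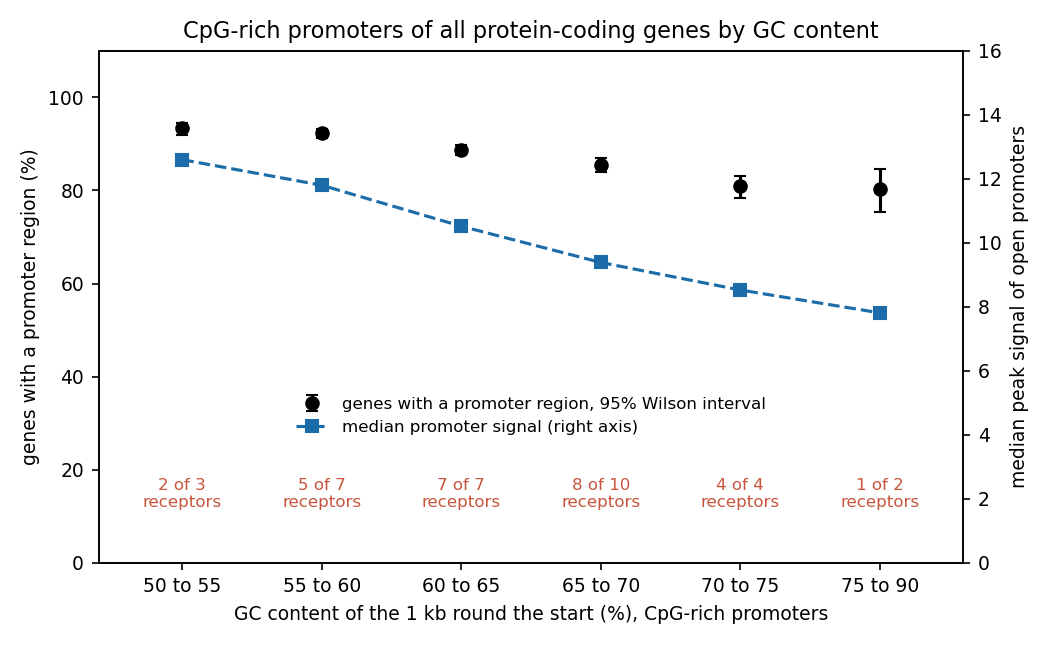
CpG-rich promoters of all protein-coding genes by the GC content of the 1 kb round the start: black points (left axis) give the percentage with a promoter region and its 95% Wilson interval, blue squares (right axis) the median signal of those that had one. The share goes down to 80.4% and the median signal to 7.81 in the highest GC class, where 1 of 2 receptors had a region.

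The steroid receptors comprise the glucocorticoid receptor Nr3c1, the mineralocorticoid receptor Nr3c2, the progesterone receptor Pgr and the oestrogen receptors Esr1 and Esr2. All 5 had a promoter region. Nr3c1, used by nearly all cells, had 3 separate promoter regions with signals of 4.01, 6.85 and 8.44. The strongest, beside the Nr3c1-209 start, had 7.69 in replicate 1 and 7.85 in replicate 2. Nr3c2, best known from kidney, ranked higher than Nr3c1 at 10.1 (9.68 in replicate 1 and 9.77 in replicate 2). Esr1 had 8.70 (8.21 in replicate 1 and 7.67 in replicate 2) and Pgr 6.32 (5.95 in replicate 1 and 6.26 in replicate 2). Esr2 had 2 regions of 7.88 and 7.46 near its start, and only replicate 1 listed either in its stricter list, the second with 7.17. Thus 4 of these 5 genes, of which 3 are named for reproductive or kidney tissue, were listed in both replicates.

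The thyroid hormone receptors Thra and Thrb and the vitamin D receptor Vdr each had a promoter region in both replicates. Thra had 8.98, with 7.78 in replicate 1 and 9.45 in replicate 2, in a region whose summit lay 1171 bp upstream of the Thra-201 start. That summit, at chr11:98740640, lay at the annotated 5′ end of the gene, which begins at chr11:98740638. A weaker region of 4.55 lay at the Thra-201 start itself. Thrb had 6.62 and 5.71 in 2 neighbouring regions at the Thrb-205 start. Vdr had 6.94 (6.57 in replicate 1 and 7.16 in replicate 2), with the summit 947 bp inside the gene from Vdr-201. The 2 Thra and Thrb regions with summits more than 1 kb out are counted by their edge, which lies within 1 kb of a start.

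Among the lipid sensors was the liver X receptor Nr1h3, which binds oxysterols and is known from macrophages and liver. In the conservative list it had the strongest promoter region of all 46 genes. This region lay at chr2:91194532-91195316 with a signal of 14.03 at percentile 82.4, with 12.1 in replicate 1 and 13.3 in replicate 2. Its ubiquitous relative Nr1h2 had 7.25 at percentile 18.0 (7.51 in replicate 1 and 5.93 in replicate 2). The order of the pair was the same in both replicates. Nr1h3 was first among the receptors in neither replicate's own list. Rorb (12.9) and Nr2c2 (12.2) were stronger in replicate 1's, and Nr2c2 (13.7) in replicate 2's. Of the fatty acid receptors, Ppard had 11.8 (10.9 in replicate 1 and 10.5 in replicate 2) and Ppara 11.3 (10.7 in replicate 1 and 9.21 in replicate 2). Pparg, the member named for macrophages and fat cells, had 7.04 at the Pparg-202 start, with no entry in either replicate's stricter list and 6.14 and 6.82 in the less strict lists of replicates 1 and 2. Of the bile acid and drug sensors of liver and gut, Nr1h4 and Nr1i3 had no promoter region, and Nr1i2 had one of 6.41 with its summit 879 bp upstream and no entry in either replicate's stricter list. Nr0b2, which blocks other receptors in liver, had 7.50, with no entry in replicate 1's stricter list and 8.27 in replicate 2's.

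The clock-linked receptors were the repressors Nr1d1 and Nr1d2 and the activators Rora and Rorb, which compete for the same sites. Nr1d1 had 6.53 (6.13 in replicate 1 and 7.05 in replicate 2) and Nr1d2 7.15 (7.10 in replicate 1 and 7.48 in replicate 2). Rora had 9.36 (8.55 in replicate 1 and 8.02 in replicate 2), at the start of its shorter form Rora-202, with none at the other of its 2 starts. Rorb, best known from brain and retina, had the second strongest promoter region of the family in the conservative list, at 13.7 and percentile 79.6. The region, at 1 of its 2 starts, had 12.9 in replicate 1 and 12.2 in replicate 2. Rorb also had no distal region in a territory of 286 kb.

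The NR4A receptors Nr4a1, Nr4a2 and Nr4a3 are immediate-early genes, and Nr4a1 and Nr4a3 together are known to suppress myeloid leukaemia in mice. All 3 had a promoter region in both replicates, and they did not rank alike. Nr4a2 had 10.1 at its Nr4a2-203 start (9.59 in replicate 1 and 8.10 in replicate 2) and 2 much weaker regions of 3.91 and 3.03 at Nr4a2-201. Nr4a1 had 6.41 (5.83 in replicate 1 and 6.98 in replicate 2) at Nr4a1-201 and 5.23 at Nr4a1-202. Nr4a3 had 4.56 (4.597 in replicate 1 and 4.47 in replicate 2), the lowest value of any receptor with a promoter region, at percentile 1.61.

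Among the remaining orphan receptors, the testicular orphan receptors Nr2c1 and Nr2c2, which despite their name are widely expressed, had 10.3 (9.91 in replicate 1 and 9.04 in replicate 2) and 13.4 (12.2 in replicate 1 and 13.7 in replicate 2). Nr2f6 had 6.35, with 5.71 in replicate 1 and no entry in replicate 2's stricter list. Its relatives Nr2f1 and Nr2f2, which act in neurons, veins and the heart's atria, had none, and neither did Nr2e1 and Nr2e3 of brain and retina. Of the oestrogen-related receptors, which run mitochondrial gene programmes or, for Esrrb, stem cell self-renewal, Esrra had 10.7 (10.02 in replicate 1 and 10.8 in replicate 2) and Esrrb none. Esrrg had 12.3 in the conservative list and 7.84 in replicate 2's, with no entry in replicate 1's stricter list. Nr6a1, the germ cell nuclear factor, had 12.02 (10.98 in replicate 1 and 12.3 in replicate 2). Nr5a2 had 5.93 with no entry in either replicate's stricter list. The adrenal and gonadal regulators Nr5a1 and Nr0b1 and the liver and gut factors Hnf4a and Hnf4g had none.

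Many receptors had a promoter region at some of their starts and not at others. Of 31 receptors with several annotated starts and at least 1 promoter region, 22 had a start with no region within 1 kb (71%), beside 43.7% of all such protein-coding genes. The share was 6 of 11 for ubiquitous, 5 of 7 for myeloid and 11 of 13 for tissue-restricted receptors. Counted by start, 90 of the 160 receptor starts were within 1 kb of a region (56.2%), beside 56.7% of all 54361 starts. The receptors had a median of 3 starts and all genes of 2, and the part of the number of starts in this was not tested.

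Of the 12 receptors with no promoter region, 8 had none in any of the 6 lists compared (the conservative, IDR-thresholded, replicated-peaks and pseudoreplicated lists and each replicate's own list): Nr0b1, Nr1h4, Nr1i3, Nr2e1, Nr2e3, Nr5a1, Hnf4a and Hnf4g. Esrrb, Nr2f1 and Nr2f2 had one in the replicated-peaks and pseudoreplicated lists, and Rxra in the replicated-peaks list. Nr0b1 and Hnf4g lay farthest from any region, at 272 kb and 118 kb. By contrast Nr2f2, Nr2f1 and Hnf4a had regions 1552 bp, 1856 bp and 2086 bp from a start.

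Distal regions were given to 39 of the 46 receptors (84.8%), beside 59.7% of all protein-coding genes, and the mean was 3.43 per receptor and 2.02 per gene over all. Receptor genes also had more sequence nearest to them. The median territory, the sequence between 1 kb and 100 kb from a start for which that gene's start is nearest, was 113 kb for receptors and 43.7 kb for all genes. Per 100 kb of territory the receptors had 2.55 distal regions and all genes 2.87, so the order of the 2 was the other way round. Per 100 kb, ubiquitous receptors had 3.66, myeloid receptors 4.20 and tissue-restricted receptors 1.98. The myeloid genes were uneven, with 15.3 for Rara and 18.6 for Nr4a1, and from 0 for Nr1h3 to 4.96 for Vdr among the others. The 7 receptors with no distal region were Nr2f6, Esrra, Nr1h3, Nr0b1, Nr3c2, Rorb and Hnf4g. Nr1h3, with the strongest promoter region in the conservative list, had a territory of 7.40 kb.

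**Figure D4:**
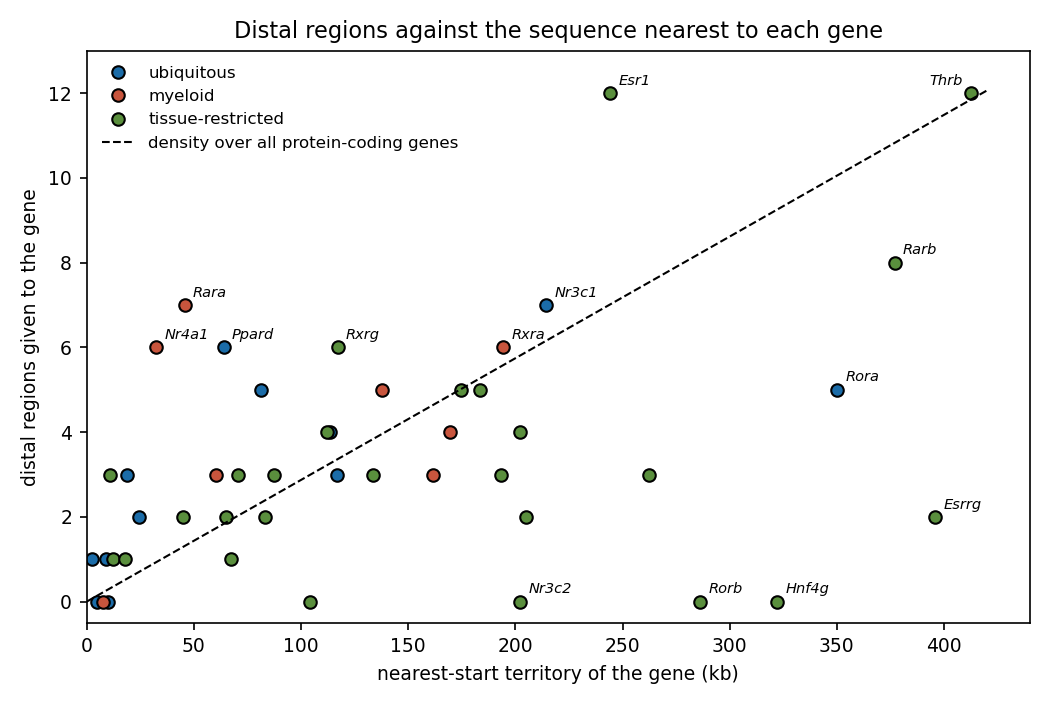
Each point is 1 receptor gene, coloured by class, with its territory in kb on the horizontal axis and the number of distal regions given to it on the vertical axis; the dashed line is the density over all protein-coding genes, 2.87 per 100 kb. Esr1, Rara and Nr4a1 lie above the line, Thrb near it, and Rarb, Rora, Esrrg, Rorb, Nr3c2 and Hnf4g below it.

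The genes with the most distal regions were Esr1 and Thrb with 12 each, Rarb with 8, and Nr3c1 and Rara with 7 each. At least 12 were given to 1.74% of all genes, and at least 7 to 7.72%. Of the 12 Esr1 regions 10 lay in its own introns, but replicate 1 listed 4 and replicate 2 listed 2. Of the 12 Thrb regions 11 lay in its introns, 7 were in replicate 1's list and 5 in replicate 2's. Rarb was better supported, with 6 of its 8 regions in both lists, and of the 7 of Rara 3 were in both. Thrb and Rarb have territories of 413 kb and 377 kb and Rara one of 45.7 kb. Rara had 15.3 distal regions per 100 kb, and all but 1 of its 7 lay in its own introns.

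Between them, 6 members form a pair of matching neighbourhoods that descend from 1 ancestral cluster, Nr1d1, Thra and Rara on chromosome 11 and Rarb, Thrb and Nr1d2 on chromosome 14. This pair was picked after the values had been seen. All 6 genes had a promoter region, beside 34 of the 46 receptors and 60.8% of all genes. Rarb had no entry in replicate 2's stricter list. The chromosome 11 genes span 234 kb and had 12 distal regions, 13.5 per 100 kb of territory, and the chromosome 14 genes span 1808 kb and had 24, 2.66 per 100 kb. In both neighbourhoods most of these lay in the gene's own introns, 9 of 12 on chromosome 11 and 20 of 24 on chromosome 14. Over the whole family this held for 89 of 158 (56.3%). One region given to Nr1d1, with a signal of 5.77, lay in an intron of Thra. A similar case was Nr5a1, whose single distal region (signal 10.8) lay in an intron of its neighbour and relative Nr6a1.

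Of the 158 distal regions, 102 were in introns (64.6%) and 53 between genes (33.5%), beside 49.99% in introns and 45.7% between genes for all 44146 distal regions given to protein-coding genes by the same rule. The gene's own intron held 89 of them and another gene's intron 13. Their median signal was 7.71, beside 8.08 for all distal regions, and 64 were in both replicates' own lists (40.5%), beside 44.3% of all distal regions. Among those 64 the signals of the replicates had a Spearman rho of 0.85, and it was 0.86 over the 19544 such regions among all distal regions. These points are regions of the same pair of libraries and are not independent. The medians were 7.98 for ubiquitous, 6.52 for myeloid and 7.98 for tissue-restricted receptors. The value 7.98 recurs, since the same signal was given to 6 of the 158 regions and to 290 of all distal regions.

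Of the 158 regions, 11 were among the strongest 10% of all distal regions, a share of 6.96%, with percentiles here being ranks among the 44146 distal regions. They belonged to tissue-restricted receptors in 9 cases and to ubiquitous receptors in 2, and none of the 34 regions of myeloid receptors was among them. The highest-ranked myeloid one, in Rxra, was at percentile 79.7. The strongest lay in an intron of Esr1 at chr10:4786852-4787629, 77.0 kb beyond its nearest start, with a signal of 19.5 at percentile 99.6 (17.9 in each replicate). Another Esr1 intron region, at chr10:4674935-4675545 and 35.0 kb upstream of its nearest start, had 18.0 (16.8 in replicate 1 and 13.6 in replicate 2). Between them ranked a Rora intron region at chr9:69335952-69336663, 46.6 kb beyond Rora-202, with 18.0 (15.05 in replicate 1 and 17.9 in replicate 2). Nr2e3, which had no promoter region, had the fourth at 17.3 (15.4 in replicate 1 and 15.0 in replicate 2), in an intron of its own gene model but 9.40 kb upstream of its 1 protein-coding start. Its edge lay 944 bp from the start of another Nr2e3 transcript, one annotated as not protein-coding and so not among the starts used. Of the 158 distal regions 4 lay within 1 kb of such a start, and the other 3 were in Rora (signal 10.9), Rxrb (4.37) and Rxra, where the strongest region (11.1) overlapped the start of a non-coding transcript. The other 7 were 2 each of Thrb and Nr6a1 and 1 each of Rarb, Nr2c1 and Nr1h4, with signals of 13.1 to 15.4. The Nr2c1 region lay in an intron of Fgd6, and the strongest Thrb region had no entry in replicate 1's list.

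**Figure D5:**
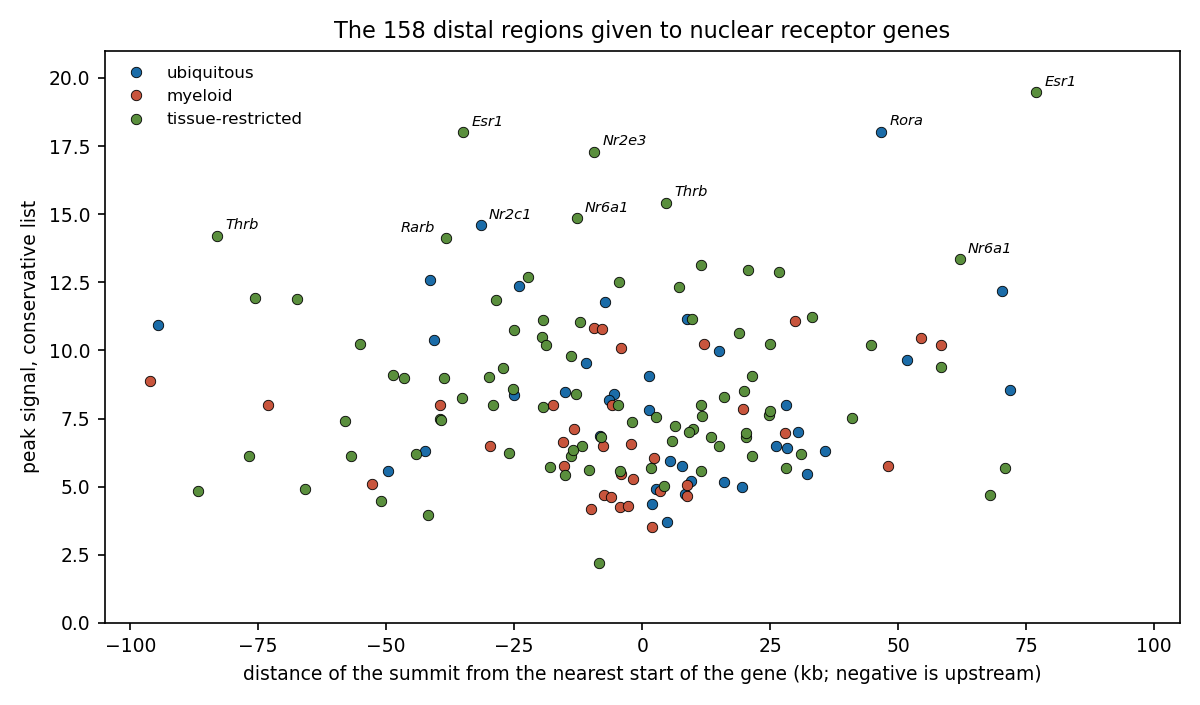
Each point is 1 of the 158 distal regions given to receptor genes, coloured by class, with the distance of its summit from the gene's nearest start in kb on the horizontal axis and its signal in the conservative list on the vertical axis; the 10 strongest are named. Regions of myeloid receptors all lie at or below a signal of 11.1, while Esr1 and Rora regions reach 18.0 to 19.5 at 35.0 kb or more from a start.

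The DNA at the summits was searched for the letters of 21 motifs, on both strands, in 101 bp windows. Letters of factors that act in blood progenitors were found in receptor regions at about the share of all distal regions: PU.1 (GAGGAAGT) in 13 of 158 (8.23%), beside 6.71%, RUNX (TGTGGTT) in 14 (8.86%), beside 8.49%, and the E-box CAGATG in 17 (10.8%), beside 10.3%. GATA letters (AGATAA or TGATAA) were in 14 (8.86%, interval 5.35 to 14.3%), beside 12.5% of all distal regions, and AP-1 (TGANTCA) in 6 (3.80%), beside 5.65%. In each case the interval of the receptor share holds the share of all regions. The CTCF letters CCACNAGG were in 13, beside 8.16%, those of SP (GGGCGGG) in 3, beside 3.04%, and those of C/EBP (TTGCNNCAA) in 1, beside 0.831%. In promoter regions the SP letters were in 12 of 47 (25.5%), beside 22.6% of all promoter regions.

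The receptors' own hexamer AGGTCA was in 9 of the 158 distal windows (5.70%, interval 3.03 to 10.5%), beside 5.91% of all, and the steroid receptor hexamer AGAACA in 13 (8.23%), beside 7.57%. In windows reaching 100 bp to each side the first was in 15, beside 11.9% of all. By class, in the shorter windows, it was in 4 of 37 windows of ubiquitous, 1 of 34 of myeloid and 4 of 87 of tissue-restricted receptors. Direct repeats of AGGTCA with 1 to 5 bases between, and the palindromes of AGGTCA and of AGAACA with 3 bases between, were in 0 of 158 windows, which allows a share of up to 1.90% by a floor of 3 windows and of 2.37% by the Wilson interval. They were nearly absent from all 44146 windows too, at 0.00453% each for the repeats with 2 and with 4 bases between and for the AGAACA palindrome, and 0% for the others. The NR4A element AAAGGTCA was in 0 receptor windows, beside 0.267%, and the element TCAAGGTCA, bound by the oestrogen-related and NR5A receptors, in 1, beside 0.104%. That 1 lay in an intron of Esrrg, itself an oestrogen-related receptor gene, at chr1:187653244-187653928, in a region with a signal of 10.2 (8.05 in replicate 1 and 10.5 in replicate 2). A match of letters describes the sequence and does not show binding.

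Summit windows are printed for the 2 strongest Esr1 regions, the strongest Rora region and a Thrb region, each of which holds PU.1 or RUNX letters, for an intron region of Nr1h4, a bile acid receptor gene with no promoter region, and for 2 regions with AGGTCA. Each is 101 bp of GRCm38.p6 on the plus strand, and capitals mark the motif letters on either strand. In order they are chr10:4787104-4787204 (RUNX), chr9:69336249-69336349 (PU.1), chr10:4675092-4675192 (PU.1), chr14:17879624-17879724 (PU.1), chr10:89521960-89522060 (GATA, then PU.1), chr1:187653588-187653688 (PU.1 and, overlapping it, TCAAGGTCA) and chr9:69320002-69320102 (AGAACA, RUNX and AGGTCA).
Esr1 downstream intron: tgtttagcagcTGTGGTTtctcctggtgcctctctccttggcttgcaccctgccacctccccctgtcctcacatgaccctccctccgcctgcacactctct
Rora intron, strongest: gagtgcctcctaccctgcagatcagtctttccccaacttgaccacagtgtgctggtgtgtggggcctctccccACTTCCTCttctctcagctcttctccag
Esr1 upstream intron: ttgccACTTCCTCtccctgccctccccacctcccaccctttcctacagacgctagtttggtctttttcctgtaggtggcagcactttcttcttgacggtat
Thrb intron: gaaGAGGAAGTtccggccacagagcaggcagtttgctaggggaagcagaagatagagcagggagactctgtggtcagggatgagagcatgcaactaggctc
Nr1h4 intron: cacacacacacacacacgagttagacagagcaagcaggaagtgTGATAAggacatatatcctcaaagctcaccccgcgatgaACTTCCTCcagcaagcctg
Esrrg intron: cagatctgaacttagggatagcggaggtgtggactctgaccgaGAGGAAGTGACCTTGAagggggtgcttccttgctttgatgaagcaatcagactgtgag
Rora intron, weaker: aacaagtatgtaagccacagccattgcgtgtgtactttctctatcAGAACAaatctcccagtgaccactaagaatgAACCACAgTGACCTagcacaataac
The printed Thrb region had a signal of 14.2 (13.0 in replicate 1 and 13.1 in replicate 2) and the Nr1h4 region one of 13.1 (11.3 in replicate 1 and 11.7 in replicate 2). The weaker Rora region had 7.02, with 6.16 in replicate 1 and no entry in replicate 2's list.

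Coregulators, chaperones and target genes of the receptors nearly all had a promoter region in the conservative list, and fewer coregulators and target genes did in the replicates' own lists. All 15 coregulator genes (such as Ncor1, which represses, and Ncoa1, Ncoa2 and Ncoa3, which activate) had one, with signals of 4.47 in Tbl1x to 13.5 in Med1, and 14 were in replicate 1's own list and 11 in replicate 2's. All 6 chaperone genes of the steroid receptors had one, also in both replicates' lists, and Fkbp5, itself induced by glucocorticoid, had 16.5 at percentile 94.7. Of 16 known target genes 15 had one, including the liver X receptor targets Abca1 (12.1) and Abcg1 (4.66) and the vitamin D target Cyp24a1 (15.2 at percentile 88.9), with Nfil3 the exception. Of these target genes 13 were in replicate 1's list and 9 in replicate 2's (56.2%, beside 52% of all genes). Besides Nfil3, Abcg1 and Cebpe (4.82) were in neither, and they ranked low at percentiles 1.92 and 2.51. Tgm2 ranked low too, at percentile 3.28. Of the genes that supply or remove retinoic acid 5 of 11 had one (45.5%, interval 21.3 to 72.0%, which holds the share of all genes), with 5 in replicate 1's list and 3 in replicate 2's. The open ones were the retinal-oxidising enzymes Aldh1a1 (12.2), Aldh1a2 (6.03) and Aldh1a3 (7.16) and the retinol and retinal enzymes Rdh10 (7.77) and Dhrs3 (5.14), and the binding proteins Crabp1, Crabp2 and Rbp4, the importer Stra6 and the degrading enzymes Cyp26a1 and Cyp26b1 had none. Beside these shares stands the 60.8% of all protein-coding genes. Most genes of these lists were CpG-rich. Of the CpG-rich ones, 13 of 13 coregulators, 6 of 6 chaperones, 11 of 12 targets and 4 of 8 retinoic acid genes had a promoter region. The share was 88.6% of all CpG-rich genes. Of the CpG-poor ones, 2 of 2 coregulators, 4 of 4 targets and 1 of 3 retinoic acid genes had one, beside 33.3% of all CpG-poor genes.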

How the data were processed

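ATAC-seq peak lists of 2 libraries of common myeloid progenitors were used, in 1 group. The deposited lists are on mm10, per the notes beside the files. How reads were aligned and peaks called is not given in the sources used here. Each peak carries a signal, a value the authors deposited whose normalization is not stated. No column of per-sample values went unused (0). The 8 lists used were the conservative, IDR-thresholded, replicated and pseudoreplicated lists of the series and the stricter and less strict list of each replicate.

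Overlapping rows of a list were merged (1 bp or more), keeping the strongest summit. A promoter region has an edge within 1 kb of a start of a GENCODE M21 protein-coding transcript. A distal region has its summit over 1 kb from every start and its nearest start within 100 kb. A region may be a promoter region of 1 gene and distal to another. Shares over all promoter or distal regions take the regions that the same rules give to any protein-coding gene, so regions over 100 kb from every start are not in them. Replicate support means an overlap of at least 1 bp. Sequences came from GRCm38.p6 and from RefSeq promoters, which held 42 of the 46 receptors. Shares have 95% Wilson intervals (statsmodels 0.14.6; Python 3.11.15, NumPy 2.4.6). Merging, assignment and motif search were tested on simulated data.

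Members, classes and gene lists were chosen with earlier results of these data known, and the GC classes, the neighbourhood pair, the counts of starts, the strongest 10% and the Rarb element after values were seen. Named were members, listed genes and genes sharing a region or intron with a member. Of the listed genes, 3 are not reported here and were left out of the counts of their lists. Other lists, windows, starts, distances and class assignments were tried.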

Additional observations from a re-analysis of the deposited data

How the results depend on the processing

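Each of 10 results was recomputed under the alternatives that applied to it, and 58 of these recomputed values stayed close to the reported one while 29 did not. Close means within 1.5 times for a count and inside the reported value's Wilson interval for the share with AGGTCA. For the median signal it means within 0.499, the SD between the medians of the replicates' own lists. That SD comes from 2 of the values it judges, and medians of different lists are on different scales. Being close or not is thus only descriptive for the median signal. The count of receptors with a promoter region was 33 to 38 in the other series lists and windows, and 27 to 29 with either replicate left out. Leaving a replicate out means taking the other replicate's own list, so these are the counts already given for those lists. With the upper 50% of regions by signal it was 17, beside 43.7% of all genes. These were 7 of 12 ubiquitous, 2 of 8 myeloid and 8 of 26 tissue-restricted receptors, so the order of the last 2 classes was reversed. Counts of distal regions moved with the number of regions listed. The replicated-peaks list gave 302 (70 ubiquitous, 66 myeloid and 166 tissue-restricted), the pseudoreplicated list 303 (67, 69 and 167 in the same order) and the upper 50% by signal 64 (17, 8 and 39). With 1 replicate left out they were 72 to 97 for all receptors, 17 to 19 for ubiquitous, 14 to 22 for myeloid and 41 to 56 for tissue-restricted receptors. The share of distal windows with AGGTCA was 2.78% without replicate 1 and 3.09% without replicate 2, from 2 of 72 and 3 of 97 windows, 3.12% in the upper 50% by signal and 9.49% in the longer windows, against 5.70% as reported, so it moved by over 1.5 times in each of these though the last 2 and that without replicate 2 are inside the interval. The median distal signal was 5.29 in the replicated-peaks list, 5.21 in the pseudoreplicated list, 10.8 in the upper 50%, and 8.11 to 8.81 with a replicate left out; these are on the scale of each list. Moving the 7 receptors of debatable class to their second class left 11 of 12 ubiquitous, 6 myeloid and 17 tissue-restricted receptors with a promoter region. No paired analysis was possible because there is 1 group. Depth is unknown, so a missing region may be one the libraries were too shallow to list.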
